A study of Mus musculus with 6 samples.

Results

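The genes described here are 10 immediate early response genes of the mouse, chosen by name: Fos, Fosb, Jun, Junb, Jund, Egr1, Egr2, Egr3, Ier2 and Nr4a1. Earlier results of these data were known when they were chosen. All 10 were found among the 20097 genes listed, and all 10 passed the filter on low values that left 15410 genes for testing. RNA was measured in bone marrow cells carrying Kit, the receptor for stem cell factor and the usual handle for blood stem and progenitor cells. The 6 libraries fall into 3 of the genotype WT and 3 of the genotype Runx1 KO, with Runx1 encoding a transcription factor of blood development. Every library came from the same kind of cell, was made from poly-A RNA with a strand-specific kit and was sequenced in 1 pool, per the labels. How and when Runx1 was disrupted, any promoter or Cre driver, the age and sex of the mice, and whether cells of several mice were pooled are not given in the sources used here. Nor are the time from marrow to lysis, the temperature or the method of selecting the Kit-positive cells. The labels do not say that the replicates were separate mice, so p-values measure only the spread between these samples, which may be technical.

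Immediate early genes are transcribed within minutes of a stimulus without new protein synthesis, through factors already present in the cell such as SRF with its ternary complex partners and CREB, which MAP kinases and other kinases activate. FOS and JUN proteins pair through leucine zippers to form the AP-1 transcription factors, EGR proteins are zinc finger factors that bind GC-rich sites, and NR4A1 is an orphan nuclear receptor. The same genes are well known to be induced by tissue dissociation, warming and cell sorting, often together with heat shock genes, and they are also expressed in resting blood progenitors, so a level in isolated marrow cells can reflect the animal or the handling.

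In GENCODE release M21, annotated on GRCm38, all 10 are protein-coding genes, and most are short. Their median span was 4698.5 bp against 18213 bp over the tested genes with a gene model, and 9 of the 10 lay below that median, the exception being Nr4a1. Jun, Jund and Ier2 have a single exon. On the forward strand lie Fos (chromosome 12, 85473890 to 85477273), Jund (chromosome 8, 70698949 to 70700616), Egr2 (chromosome 10, 67535475 to 67542188), Egr3 (chromosome 14, 70077203 to 70082614), Nr4a1 (chromosome 15, 101254269 to 101274795) and Egr1 (chromosome 18, 34859823 to 34864984). On the reverse strand lie Fosb (chromosome 7, 19302696 to 19310051), Jun (chromosome 4, 95049034 to 95052222), Junb (chromosome 8, 84974484 to 84978718) and Ier2 (chromosome 8, 84661331 to 84662852).

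The RNAs of several early genes carry AU-rich elements in the 3′ untranslated region, which recruit decay factors such as ZFP36. The pentamer ATTTA occurred at a median of 2.57 per kilobase of 3′ untranslated region in the 10 genes, against 1.27 over 12669 tested genes with an annotated region. Nr4a1 had the highest density of the 10 with 5.49 per kilobase, followed by Fos with 4.89 and Junb with 4.10. Fosb had 0.434 per kilobase and Ier2 had none. The longer nonamer TTATTTATT was found in 1 of the 10, Fos, and in 7.89% of all those genes.

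The promoter windows printed here show the letters immediately before an annotated start site of Fos, Fosb, Egr2 and Nr4a1. They are shown because the results set the library pattern of the first pair beside that of the second. RefSeq windows on GRCm38.p6 were at hand for 7 of the 10 genes, as 11 windows of 250 bases upstream of an annotated start, and were searched on both strands. Capitals mark the CArG box, which SRF binds, TATAAA, the TATA box, and TGACG, the core of the cyclic AMP response element TGACGTCA that CREB binds, printed as CGTCA where it lies on the other strand. The windows are chr12:85473640-85473889 (forward strand) for Fos, chr7:19310046-19310295 (reverse strand) for Fosb, chr10:67537619-67537868 (forward strand, 1 of 5 windows) for Egr2 and chr15:101266596-101266845 (forward strand) for Nr4a1.
Fos: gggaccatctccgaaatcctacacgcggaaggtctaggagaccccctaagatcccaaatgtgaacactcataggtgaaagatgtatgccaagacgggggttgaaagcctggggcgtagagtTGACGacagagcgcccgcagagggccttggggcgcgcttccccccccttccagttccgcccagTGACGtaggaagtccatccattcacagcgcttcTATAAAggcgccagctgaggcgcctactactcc
Fosb: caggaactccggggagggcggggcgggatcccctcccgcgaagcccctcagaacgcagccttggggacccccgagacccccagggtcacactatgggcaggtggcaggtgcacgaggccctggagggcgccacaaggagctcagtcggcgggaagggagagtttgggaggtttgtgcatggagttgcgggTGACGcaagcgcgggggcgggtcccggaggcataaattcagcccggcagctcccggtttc
Egr2: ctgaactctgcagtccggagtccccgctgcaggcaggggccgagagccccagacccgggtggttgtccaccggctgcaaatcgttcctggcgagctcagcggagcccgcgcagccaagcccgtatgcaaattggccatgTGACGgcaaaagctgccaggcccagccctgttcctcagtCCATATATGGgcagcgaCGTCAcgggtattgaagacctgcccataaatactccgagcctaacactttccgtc
Nr4a1: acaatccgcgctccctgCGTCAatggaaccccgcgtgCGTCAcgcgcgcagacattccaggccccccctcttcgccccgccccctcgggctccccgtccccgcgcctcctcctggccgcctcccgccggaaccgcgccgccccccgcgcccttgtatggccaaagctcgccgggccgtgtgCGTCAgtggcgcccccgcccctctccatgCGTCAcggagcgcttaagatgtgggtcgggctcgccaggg

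The Fos window holds the only TATAAA among the 11, at 33 to 28 bases before the start, and TGACG at 129 to 125 and at 66 to 62 bases. TATAAA was present in 12.4% of 32851 windows of the same length, and TGACG, which is also counted inside TGACGTCA, in 17.8%. Nr4a1 had 4 TGACG matches, Fosb and Junb had 1 each, and Jun and Jund had none. The Jund window ends at 70697738, well before the gene start of 70698949 given above. The bases just before that gene start were therefore not searched. Nor were those before the Nr4a1 gene start of 101254269, since the Nr4a1 window lies inside the gene. The printed Egr2 window also lies inside its gene, while another Egr2 window spans the gene start. The CArG box was found in 4 of the 5 Egr2 windows, at 72 to 63 bases in the one printed, and in 1.47% of all windows. The overlapping Egr2 windows starting at 67537619, 67537620 and 67537680 hold the same site, CCATATATGG. The window starting at 67537316 holds another, CCTTTTTTGG. Neither the whole TGACGTCA nor the AP-1 site TGANTCA (N being C or G) was found in any of the 11 windows, against 1.55% and 4.46% of all windows. GGGCGG, the GC box, is not capitalised above. It occurred in windows of Fos, Fosb, Jun, Egr2 and Nr4a1, and in 32.7% of all windows. A match is a description of the letters, and its absence says only that they do not lie in the window.

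Values are normalised read counts, that is, each gene's reads scaled by the size factor of the library. Changes are log2 differences of the libraries labelled Runx1 KO minus WT on the log2(normalised read count + 1) scale from limma, with a standard error (SE), and a gene was called when its Benjamini-Hochberg adjusted p over all tested genes was under 0.05. The libraries held between 23297526 and 26793380 reads, and the 10 genes took from 50 reads (Egr3) to 32655 reads (Fos) in a single library, so counting error is small beside the spread described here. Libraries of a group correlated across genes at 0.979 to 0.990 and libraries of different groups at 0.934 to 0.970. Kit stood at 8301 ± 280 (SD, n = 3) in WT and 12649 ± 1093 in the libraries labelled Runx1 KO (log2 change 0.60, limma adjusted p = 0.00346). The targeted gene itself, Runx1, stood at 3109 ± 356 (SD, n = 3) in WT and at 6399 ± 494 in the libraries labelled Runx1 KO (log2 change 1.04, limma adjusted p = 0.00163), higher in 3 of 3 of them. A gene total does not show which exons were read, so this level does not test a deletion, and every direction given is that of the libraries as labelled.

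All 10 genes were detected in all 6 libraries, and none separated the 2 genotype labels. None was called by limma, against 21.9% of all 15410 tested genes (10.6% higher and 11.3% lower). At an unadjusted p under 0.05 limma gave 1, Nr4a1, beside 5810 of all 15410 tested genes. On recovered reads edgeR and DESeq2 gave 0 of the 10 called and 0 at that unadjusted level. In none of the 10 did the 3 WT values and the 3 labelled Runx1 KO values fall into separate ranges, which happened for 43.3% of all tested genes. For any level in bulk RNA, fewer cells of an expressing type and less RNA per cell cannot be told apart. The median log2 change of the 10 was -0.11 beside -0.0042 over all tested genes, with 9 fitted values below 0 and 1, that of Egr1, above. Over all genes the calls moved with the library left out: without Runx1 KO replicate 2 they numbered 632 higher and 735 lower, without Runx1 KO replicate 3 859 and 908, and without WT replicate 2 982 were higher, against 1631 and 1739 with all 6. The highest count in each direction with 1 library left out was above that with all 6, but this did not hold for every other library. Each of these fits also rests on fewer libraries, and the part of that in the counts was not tested.

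The libraries of one genotype differed among themselves far more for these genes than for most. The standard deviation of log2 values within groups had a median of 0.70 over the 10 genes against 0.15 over all tested genes, all 10 lay above that all-gene median, and 7 lay above its 90th percentile, 0.54. From the lowest to the highest WT library the value moved by more than 2-fold in 8 of the 10, against 10.2% of all tested genes, and between the libraries labelled Runx1 KO in 4 of the 10, against 9.16%. Ier2 was the steadiest with a standard deviation of 0.25 (68.4th percentile of all genes) and Fosb the least steady with 1.42 (99.0th percentile). Without replicate 1 of both groups the median standard deviation of the 10 was 0.39.

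**Figure D1:**
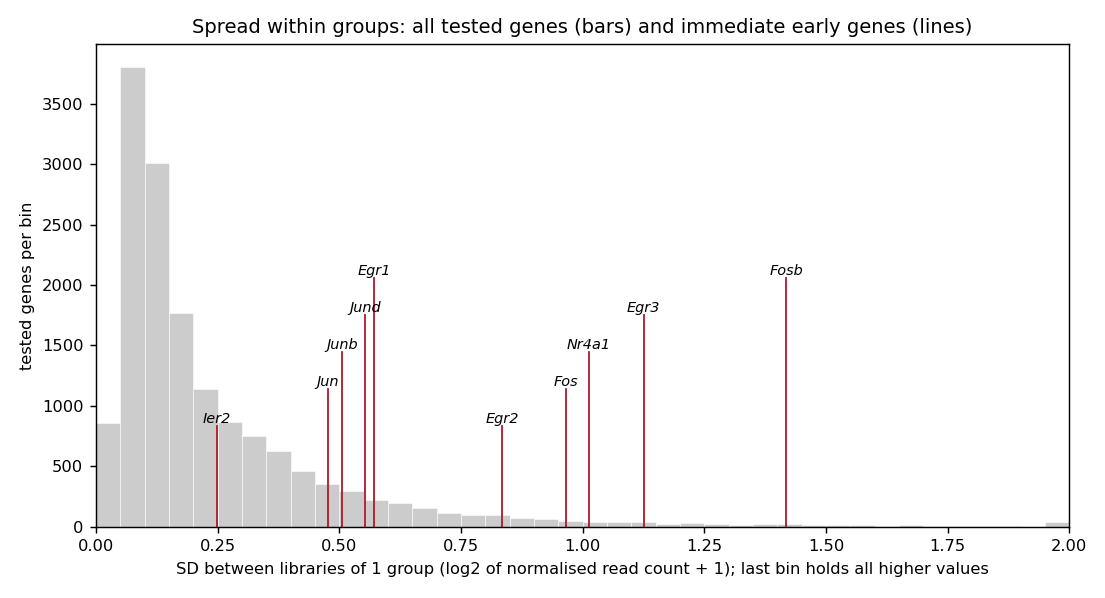
Distribution of the within-group standard deviation of log2(normalised read count + 1) over the 15410 tested genes (x axis in log2 units, y axis number of genes, last bin holding all higher values), with the 10 immediate early genes marked. All 10 lie right of the all-gene median of 0.15, from Ier2 at 0.25 to Fosb at 1.42.

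Fos encodes the founding FOS subunit of AP-1, which cannot dimerise with itself and needs a JUN partner. Its normalised read counts were 32305, 16529 and 5123 in WT replicates 1, 2 and 3, and 12537, 12156 and 16550 in Runx1 KO replicates 1, 2 and 3. The highest and the lowest of the 6 libraries were both WT, so the WT range enclosed every library labelled Runx1 KO. Highest over lowest came to 6.30-fold in WT and 1.36-fold in the libraries labelled Runx1 KO. With means of 17986 ± 13649 (SD, n = 3) and 13748 ± 2434, the log2 change was -0.04 (SE 0.59, 95% interval -1.44 to 1.36, limma adjusted p = 0.968). That interval is wide enough to hold a change of more than 2-fold in either direction. The sign turned with single libraries, and the value spanned -0.76 to 0.62, the last without replicate 1 of both groups.

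Fosb, a second FOS family subunit whose truncated splice form is long-lived in neurons, had the widest spread of the 10. WT replicates 1 to 3 held 18095, 7616 and 1468, and Runx1 KO replicates 1 to 3 held 1988, 2324 and 5543. WT replicate 1 was 12.3-fold above WT replicate 3, and WT replicate 3 lay below all 3 libraries labelled Runx1 KO while the other two WT libraries lay above them. The group means were 9060 ± 8407 (SD, n = 3) and 3285 ± 1963, with a log2 change of -0.99 (SE 0.87, 95% interval -3.05 to 1.06, limma adjusted p = 0.443). In both FOS genes WT replicate 1 was the highest and WT replicate 3 the lowest WT library, and Runx1 KO replicate 3 was the highest of its group. Without replicate 1 of both groups the log2 change of Fosb was 0.10. The step between WT replicates 2 and 3 alone was 3.23-fold for Fos and 5.19-fold for Fosb.

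Jun encodes the subunit that forms AP-1 both with FOS proteins and with itself. It read 17601, 11440 and 6923 in WT replicates 1 to 3 and 10166, 10155 and 10526 in Runx1 KO replicates 1 to 3. The WT libraries spread 2.54-fold around 3 labelled Runx1 KO values that lay within 1.04-fold of each other, which is the 5.35th percentile of that range over all tested genes. Means of 11988 ± 5360 (SD, n = 3) and 10282 ± 211 gave a log2 change of -0.12 (SE 0.30, limma adjusted p = 0.799), which was 0.21 without WT replicate 1. Jun shares its locus with the antisense gene Junos, which stood between 52.5 and 189 in the 6 libraries, far under Jun, and whether counting used the strand is not given in the sources used here.

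Junb and Jund encode the other two JUN proteins, of which JUNB restrains proliferation of blood progenitors and JUND is the least inducible. Junb read 7367, 3834 and 4184 in WT replicates 1 to 3 and 6810, 4076 and 3525 in Runx1 KO replicates 1 to 3. In both groups replicate 1 was high and the other two were lower, and the ranges overlapped almost fully (log2 change -0.09, SE 0.31, limma adjusted p = 0.858). Jund read 1450, 706 and 520 in WT replicates 1 to 3 and 800, 640 and 636 in Runx1 KO replicates 1 to 3, again with replicate 1 highest in each group (log2 change -0.24, SE 0.34, limma adjusted p = 0.653). Without WT replicate 1 the change was 0.20 for Junb and 0.18 for Jund, on the other side of 0. Junb overlaps Prdx2, a peroxiredoxin gene on the opposite strand that stood between 4205 and 5008. If strand was not used, the effect on the Junb value depends on how reads shared by both genes were counted, which is not given. Jund overlaps the antisense gene Gm11175, which is not listed.

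Egr1, the serum-inducible zinc finger factor that holds blood stem cells in their niche, was the single member with a fitted change above 0. It read 10399, 3787 and 5208 in WT replicates 1 to 3 and 9950, 7967 and 6443 in Runx1 KO replicates 1 to 3. WT replicate 1 was above all 3 libraries labelled Runx1 KO and WT replicates 2 and 3 were below all 3. The means were 6465 ± 3481 (SD, n = 3) and 8120 ± 1759, with a log2 change of 0.44 (SE 0.35, 95% interval -0.39 to 1.27, limma adjusted p = 0.404). Egr1 is called once WT replicate 1 is left out, at a log2 change of 0.85 (limma adjusted p = 0.0420), and again without replicate 1 of both groups, at 0.69 (limma adjusted p = 0.0327). Over the other settings that left out libraries or kept them all, the adjusted p reached up to 0.826.

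Egr2 and Egr3, which in T cells act downstream of antigen receptor and calcineurin signals, were far less abundant than Egr1, with reads from 50 to 291 per library. Egr2 read 219, 81.7 and 141 in WT replicates 1 to 3 and 271, 79.3 and 96.5 in Runx1 KO replicates 1 to 3 (log2 change -0.09, SE 0.53, limma adjusted p = 0.915). Egr3 read 229, 78.7 and 228 in WT replicates 1 to 3 and 304, 87.2 and 49.7 in Runx1 KO replicates 1 to 3 (log2 change -0.54, SE 0.70, limma adjusted p = 0.611). For both genes Runx1 KO replicate 1 was the highest of all 6 libraries, and WT replicate 2 was the lowest of WT. Egr3 ranged 6.02-fold and Egr2 3.39-fold over the libraries labelled Runx1 KO, and for both genes that range enclosed all 3 WT values. The sign turned for Egr2 without Runx1 KO replicate 2 (0.25) and for Egr3 without Runx1 KO replicate 3 (0.03). Egr4, the remaining family member, was below the filter with 2 to 12 reads per library.

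Ier2, a short intronless early gene whose protein works in transcription and cell movement, varied least. Its values were 5126, 3635 and 3596 in WT replicates 1 to 3 and 4594, 4042 and 3500 in Runx1 KO replicates 1 to 3. Replicate 1 was again the highest of each group, 1.43-fold and 1.31-fold above the lowest. The group means of 4119 ± 873 (SD, n = 3) and 4045 ± 547 differed by a log2 change of -0.01 (SE 0.16, 95% interval -0.39 to 0.36, limma adjusted p = 0.956), the narrowest interval of the 10.

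Nr4a1, the nuclear receptor NUR77, which marks recent antigen receptor signalling in lymphocytes and is needed for patrolling monocytes, had the largest fitted change of the 10. It read 4052, 2360 and 6607 in WT replicates 1 to 3 and 3607, 1001 and 722 in Runx1 KO replicates 1 to 3. Runx1 KO replicates 2 and 3 lay below every WT library, but Runx1 KO replicate 1 lay inside the WT range. The means were 4340 ± 2138 (SD, n = 3) and 1777 ± 1591, and the log2 change of -1.53 (SE 0.62, 95% interval -3.00 to -0.06) had an unadjusted limma p of 0.0430 and an adjusted p of 0.119. Without Runx1 KO replicate 1 Nr4a1 was called lower, at -2.23 (limma adjusted p = 0.0131), and without replicate 1 of both groups at -2.21 (limma adjusted p = 0.0188). Fits that kept all libraries gave adjusted p values from 0.0843 to 0.282.

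**Figure D2:**
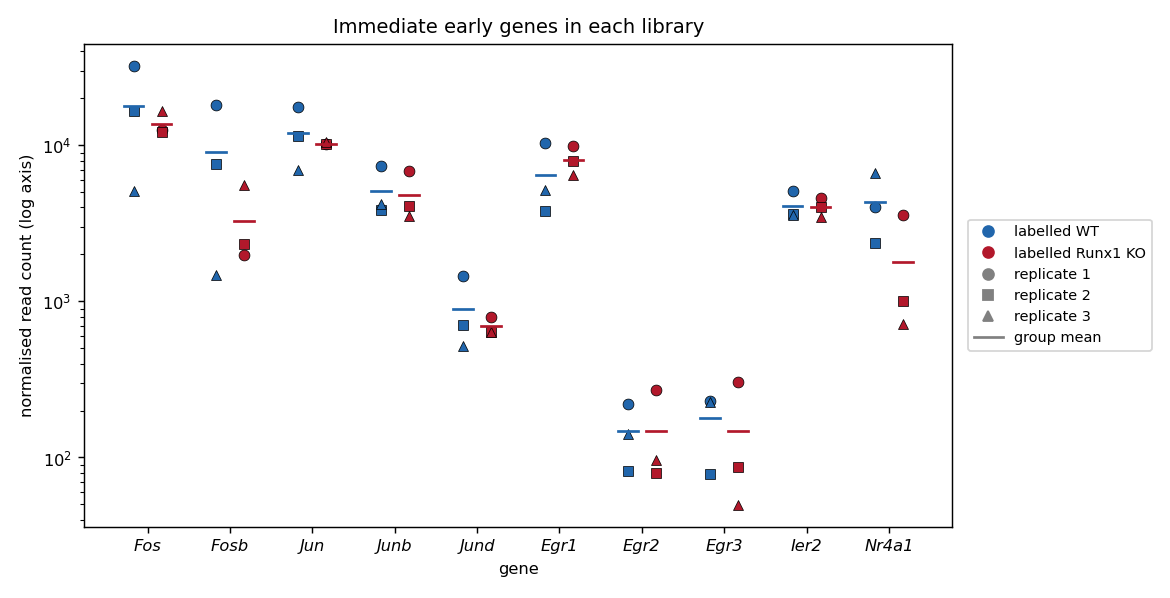
Normalised read counts of the 10 immediate early genes in each of the 6 libraries (y axis on a log scale, 1 point a library, WT and labelled Runx1 KO side by side, lines at group means). The groups overlap for every gene, and WT replicate 1 is the highest WT point for 9 of the 10.

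**Figure D3:**
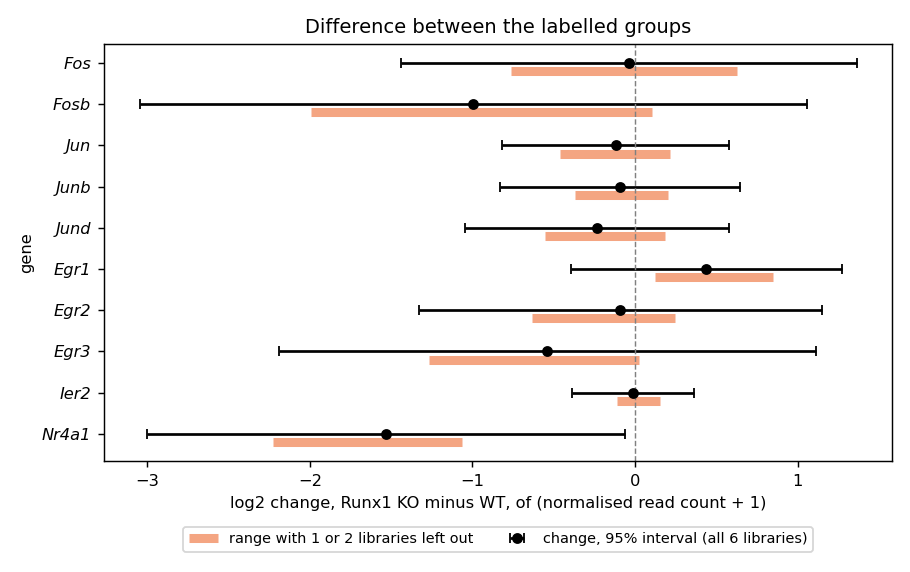
Log2 change (libraries labelled Runx1 KO minus WT) of each of the 10 genes with its 95% interval, and the range of the value when 1 library or replicate 1 of both groups is left out. Only the interval of Nr4a1, -3.00 to -0.06, lies wholly on 1 side of 0, and it is unadjusted for the number of genes tested.

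To compare levels between genes, values were divided by exon length in kilobases. In this unit the mean over the 6 libraries was 6746 for Fos, 3492 for Jun, 2682 for Ier2, 2158 for Junb, 1626 for Egr1, 989 for Fosb, 872 for Nr4a1, 475 for Jund, 43.6 for Egr2 and 37.0 for Egr3. Neighbours in that order overlapped in their range over libraries, with 1 exception, since the lowest library for Jund (312) was above the highest for Egr2 (79.7). Fos itself ranged from 2178 to 13735 and so overlapped Jun, Ier2, Junb, Egr1 and Fosb. Egr2 and Egr3 lay below the other 8 in every library. Among genes further apart in the order, the range of Jund lay wholly below those of Fos, Jun, Ier2 and Junb, and the range of Nr4a1 wholly below those of Fos, Jun and Ier2.

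Across the 10 genes WT replicate 1 was the highest WT library in 9, the exception being Nr4a1, while the same library was the highest of WT for 36.7% of all tested genes. Runx1 KO replicate 1 was the highest of its group in 7 (Junb, Jund, Egr1, Egr2, Egr3, Ier2 and Nr4a1), against 41.3% of all genes, and Runx1 KO replicate 3 in the other 3 (Fos, Fosb and Jun), against 31.0%. Summed over the 10 genes, WT replicates 1 to 3 held 96844, 50068 and 33998 normalised reads, while Runx1 KO replicates 1 to 3 held 51027, 42528 and 47590. By the lowest WT library the genes fell into 2 sets of 5: WT replicate 3 was lowest for Fos, Fosb, Jun, Jund and Ier2, and WT replicate 2 for Junb, Egr1, Egr2, Egr3 and Nr4a1. Of all 15410 tested genes, WT replicate 3 was lowest for 4937 and WT replicate 2 for 5163. These 2 libraries lay close for Ier2 (3596 in WT replicate 3, 3635 in WT replicate 2) and for Junb (4184 and 3834).

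Likeness to Fos was measured as the root mean square difference of log2 values, each gene centred on its own mean over the 6 libraries, among 12265 other genes with a mean of at least 50. The closest were Gm37352 (0.29), an uncharacterised gene model, Dusp1 (0.35), the phosphatase that switches off MAP kinases, Ddit4 (0.43), a stress-induced inhibitor of mTORC1, Nlrp12 (0.45), a NOD-like receptor of myeloid cells, and Rps2-ps10 (0.46), a ribosomal protein pseudogene. The median over all genes compared was 0.81. Ranked with these genes, Jun was 3rd (0.41), Jund 7th (0.47), Fosb 122nd (0.64) and Ier2 367th, while Egr2, Egr3 and Nr4a1 ranked 11051st, 11913th and 12021st of 12274. The 6 points share libraries and depth, and the measure is a description without a test.

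Heat shock genes are the usual companions of early genes in handled tissue, and the inducible pair Hspa1a and Hspa1b was followed for that reason. Hspa1a read 2810, 1802 and 39.3 in WT replicates 1 to 3 and 74.3, 194 and 436 in Runx1 KO replicates 1 to 3. Hspa1b read 4518, 3525 and 176 and then 244, 775 and 1378 in the same order. The copies are nearly identical and the split of reads between them is uncertain, so their sum is the safer value: WT replicate 1 was 34.0-fold and WT replicate 2 24.7-fold above WT replicate 3, and Runx1 KO replicate 3 was 5.70-fold above Runx1 KO replicate 1. Both genes kept the library order of Fosb within each group. Their spread stood at the 99.9th percentile of all genes for Hspa1a and the 99.8th for Hspa1b, and neither was called (log2 change -1.66, SE 1.56, limma adjusted p = 0.474 for Hspa1a, and -1.14, SE 1.25, limma adjusted p = 0.542 for Hspa1b). Without WT replicate 3 Hspa1a was called lower at -3.60 (limma adjusted p = 0.0259), and without replicate 1 of both groups the changes were 0.11 and 0.39.

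Of the 12 heat shock genes listed for this purpose 11 were tested and 0 called by limma, beside 21.9% of all tested genes. By limma 3 had an unadjusted p under 0.05, beside 5810 of all 15410 tested genes. DESeq2 called 2 lower, edgeR called 0 lower, and the median log2 change was -0.17. Hspb1 was below the filter, at 0 in 2 libraries. Without WT replicate 3, or without Runx1 KO replicate 3, limma called 1 lower. Over the 11, which include Hspa1a and Hspa1b, WT replicate 2 was the highest WT library in 7 and WT replicate 1 in 3, and WT replicate 3 was the lowest in 7. Runx1 KO replicate 3 was the highest of its group in 8, as for Fos and Fosb, and Runx1 KO replicate 1 the lowest in 10, as for Fosb. No label records handling, so handling and other differences between the libraries cannot be told apart, and the part of either in the FOS values was not tested.

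**Figure D4:**
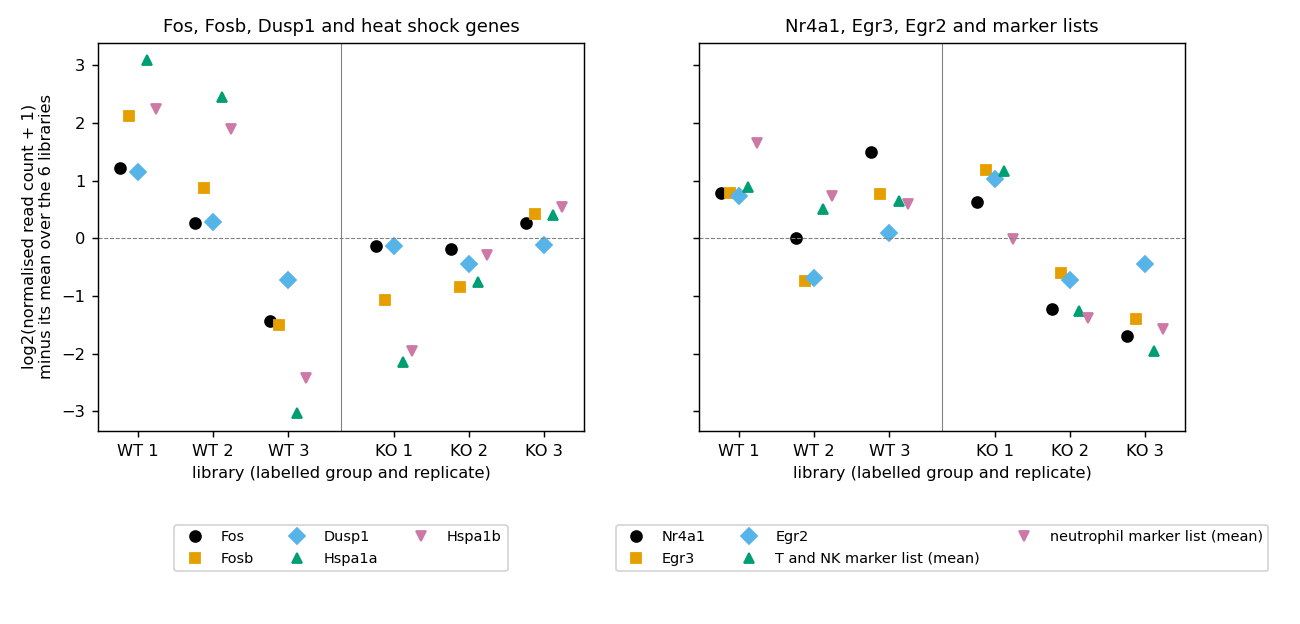
Log2 values in each library, centred on each gene's mean over the 6 libraries (y axis log2 units, x axis libraries). Left, Fos and Fosb with Dusp1, Hspa1a and Hspa1b all have WT replicate 1 as the highest and WT replicate 3 as the lowest WT library. Right, Nr4a1, Egr3 and Egr2 with the mean of the T and NK cell and of the neutrophil marker lists have Runx1 KO replicate 1 as the highest library of its group.

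Marker genes of other blood cells differed between the same libraries. Summed over 8 T and NK cell markers, levels were 1307, 1056 and 1292 in WT replicates 1 to 3 and 1546, 284 and 171 in Runx1 KO replicates 1 to 3, with Runx1 KO replicate 1 the highest of its group for 8 of 8 and no marker at 0. Runx1 KO replicate 1 was also the highest of its group for 7 of the 10 early genes, Nr4a1, Egr2 and Egr3 among them. The same held for 8 of 8 monocyte markers and for 41.3% of all tested genes. None of the 8 T and NK cell markers was called by limma, edgeR or DESeq2, with 0 at an unadjusted p under 0.05 in each. By limma 5810 of all 15410 tested genes had such a p. Without Runx1 KO replicate 1 limma called 7 of the 8. In that fit more relatives and other early genes were also called lower than with all libraries kept, and so was Nr4a1. Calls over all genes also moved with the library left out, and a link between these calls was not tested. The 8 neutrophil markers summed to between 151530 and 232446 in WT and between 27002 and 79653 in the libraries labelled Runx1 KO (6 called lower), and the 8 B cell markers to between 6614 and 26929 and between 954 and 2594 (6 called lower), none of them at 0. WT replicate 1 was the highest of WT for 7 of 8 neutrophil and 8 of 8 B cell markers, and Runx1 KO replicate 1 the highest of its group for 8 of 8 of each. These are the libraries in which most of the 10 early genes were also highest, and the part of cell makeup in the early gene values was not tested.

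Monocyte markers summed to 59881 to 72461 in WT and 53030 to 71896 in the libraries labelled Runx1 KO (1 of 8 called higher, 4 lower), erythroid markers to 16833 to 28483 and 11887 to 17475 (4 of 8 lower), and mast cell and basophil markers to 13023 to 17390 and 10467 to 12953 (4 of 7 tested lower, Tpsb2 at 0 in 1 library). Megakaryocyte markers summed to 3517 to 4398 and 4431 to 6776 (3 of 6 tested higher, Gp6 at 0 in 1 library), and stem cell markers to 18386 to 21504 and 27798 to 31561 (6 of 8 higher). Over all tested genes limma called 10.6% higher and 11.3% lower.

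Signals reach the early genes through kinases and through factors such as SRF, ELK1 and CREB1. Of 18 genes of these upstream steps 5 were called, beside 21.9% of all tested genes. Of these 5, the libraries labelled Runx1 KO had 1 at a higher level and 4 at a lower one. The median log2 change of the 18 was -0.07. Mapk3, which encodes the kinase ERK1, fell by 0.75 (SE 0.12, limma adjusted p = 0.00710), and Mrtfa, an actin-sensing coactivator of SRF, fell by 0.49 (SE 0.09, limma adjusted p = 0.0123). Rps6ka1 and Map2k1, kinases on either side of ERK, were the other two called lower, and Map2k1 lost its call when any library but Runx1 KO replicate 1 was left out and with library totals (limma adjusted p = 0.0637). Mapk9, encoding the JUN kinase JNK2, rose by 0.40 (SE 0.09, limma adjusted p = 0.0210), a call lost without WT replicate 3, Runx1 KO replicate 2 or Runx1 KO replicate 3. Srf itself read 2689, 2885 and 2721 in WT and 2628, 2617 and 2314 in Runx1 KO replicates 1 to 3 (log2 change -0.14, limma adjusted p = 0.204). None of the 18 had a within-group spread above that 90th percentile, in contrast to 7 of the 10 early genes.

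The relatives of the AP-1 and EGR members gave 3 calls among 12 tested of 13, 1 higher and 2 lower, beside 21.9% called over all tested genes. Their median log2 change was -0.59. Fosl1, the FOS family member FRA1, read 162, 73.7 and 67.1 in WT replicates 1 to 3 and 30.3, 26.8 and 24.9 in Runx1 KO replicates 1 to 3, so that every library labelled Runx1 KO was below every WT library, and it fell by 1.74 (SE 0.35, limma adjusted p = 0.0152). The highest adjusted p of Fosl1 over the alternatives was 0.0593, its call being lost without Runx1 KO replicate 2 or 3. Jdp2, a JUN dimerisation partner that represses AP-1 targets, fell by 0.87 (SE 0.09, limma adjusted p = 0.00235). Batf2, an AP-1 partner induced by interferon, rose by 1.78 (SE 0.32, limma adjusted p = 0.0104). Atf3, a stress-induced repressor, read 3365, 1640 and 1719 against 1627, 559 and 494 (log2 change -1.47, SE 0.48, limma adjusted p = 0.0698), and was called without Runx1 KO replicate 1 (-2.01, limma adjusted p = 0.00791). Without Runx1 KO replicate 1, 6 of these relatives were called lower, and without Runx1 KO replicate 2 or 3 only 1. Lower calls over all tested genes were also fewer without Runx1 KO replicate 2 or 3, as given above.

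Other early response genes outside the AP-1, EGR and NR4A1 set also had replicate 1 as the highest library in most cases. Of 21 tested, 1 was called higher and 4 lower, a share near the 21.9% of all tested genes. The median log2 change was -0.56, and 11 had an unadjusted limma p under 0.05, beside 5810 of all 15410 tested genes. WT replicate 1 was the highest WT library in 20 of the 21 and Runx1 KO replicate 1 the highest of its group in 17. Klf4, a zinc finger factor of monocyte differentiation, read 4778, 2180 and 2199 in WT replicates 1 to 3 and 900, 353 and 426 in Runx1 KO replicates 1 to 3 and fell by 2.47 (SE 0.42, limma adjusted p = 0.00914). Tnfaip3, the NF-kB inhibitor A20, fell by 1.75 (SE 0.41, limma adjusted p = 0.0247), and Nfkbia and Gadd45b, a feedback inhibitor of NF-kB and a stress sensor, were the other two called lower. Myc, the growth factor-induced transcription factor, read 5517, 6451 and 7402 and then 8650, 10911 and 10340 and rose by 0.63 (SE 0.13, limma adjusted p = 0.0159), with WT replicate 1 the lowest of the 6.

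The count of other early genes called lower moved with the libraries, to 9 without Runx1 KO replicate 1, 10 without replicate 1 of both groups, 2 without WT replicate 1 and 1 without WT replicate 2, Runx1 KO replicate 2 or Runx1 KO replicate 3. Lower calls over all tested genes moved with the libraries as well, and were fewer without Runx1 KO replicate 2 or 3 than with all libraries kept. Klf4 was called under each alternative run. Tnfaip3 lost its call without WT replicate 2, Runx1 KO replicate 2 or Runx1 KO replicate 3, Nfkbia without any library but Runx1 KO replicate 1 and by edgeR and DESeq2, and Gadd45b without any library but WT replicate 3 or Runx1 KO replicate 1 and with library totals (limma adjusted p = 0.0630). Myc was no longer called without Runx1 KO replicate 2 or Runx1 KO replicate 3. Neutrophil markers, given above, were lower in the libraries labelled Runx1 KO as these genes were, and their part in the calls was not tested.

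Feedback on the early genes runs through phosphatases that switch off MAP kinases, NAB proteins that repress EGR factors, and ZFP36 proteins that destroy AU-rich RNAs. Of 11 such genes 1 was called higher and 1 lower, beside 21.9% called over all tested genes, with a median log2 change of -0.32. Zfp36l2, an RNA decay factor, read 9663, 8471 and 9332 in WT and 15821, 16576 and 13859 in Runx1 KO replicates 1 to 3 and rose by 0.75 (SE 0.09, limma adjusted p = 0.00292). Nab1, an EGR corepressor, fell by 0.32 (SE 0.07, limma adjusted p = 0.0223), a call lost when any library but Runx1 KO replicate 1 was left out, and without Runx1 KO replicate 1 the genes called lower numbered 3. Dusp1 read 14439, 7911 and 3928 in WT and 5938, 4753 and 5982 in Runx1 KO replicates 1 to 3 (log2 change -0.47, SE 0.42, limma adjusted p = 0.451), in the same WT order as Fos, Fosb and Jun. Zfp36 read 23673, 12132 and 11160 and then 14345, 11017 and 9277 (log2 change -0.38, SE 0.30, limma adjusted p = 0.393), with replicate 1 the highest of each group as for Junb and Jund.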

How the data were processed

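RNA was measured in c-Kit+ bone marrow cells, with 3 libraries per genotype. The submitters' processing notes name HISAT2, HTSeq 0.9.1 and mm10 (GRCm38), without roles. Annotation release, strand setting and normalisation are not given in the sources used here. The values the authors deposited are a signal, and judged from the values each is a read count scaled by the size factor of its library: in each file 100% were whole multiples of 1 step within 0.001, and these multiples are the recovered reads. No value column went unmapped. Genes with under 10 reads in all are not listed.

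Symbols came from a table of Ensembl identifiers that named 20077 of 20097 genes. Genes passing filterByExpr (edgeR, minimum count 10, minimum total 15) were tested with limma 3.58.1 in R 4.3.3 (mean trend, two-sided) on log2(value + 1), with group as the single term, over all 15410 genes. This replaced the count test first written down, since the values are not counts. edgeR 4.0.16 and DESeq2 1.42.0 on recovered reads, other pseudocounts, filters and scalings, a replicate block and left-out libraries were alternatives. The test was checked on simulated data with the same low dispersion for every gene. That check does not show how well genes as variable as these 10 would be called.

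The 10 genes and all gene lists were chosen with earlier results of these data known. Beside all 10, the text names up to 2 called genes that fell and 1 that rose per list by size of change, the 5 most like Fos, and chosen companions (Dusp1, Zfp36, Atf3, Hspa1a, Hspa1b, Srf, Kit and Runx1). Rps6ka1, Map2k1, Nfkbia and Gadd45b were named after their values were seen. Leaving out replicate 1 of both groups was chosen after seeing the data.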

Additional observations from a re-analysis of the deposited data

How the results depend on the processing

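With all libraries kept, 85 of 90 recomputed changes of the 10 genes stayed on the same side of 0 and of the threshold and 5 changed sign: Fos was 0.043 and Ier2 0.068 with library totals, Ier2 0.0016 with TMM scaling, and Egr2 0.026 by edgeR and 0.013 by DESeq2. With library totals the all-gene median moved to 0.08. Leaving out 1 library, 44 of 60 stayed, 2 became calls and 14 changed sign. Over these and the fit without replicate 1 of both groups the log2 change spanned -0.76 to 0.62 for Fos, -1.99 to 0.10 for Fosb, -0.46 to 0.22 for Jun, -0.37 to 0.20 for Junb, -0.56 to 0.18 for Jund, -0.63 to 0.25 for Egr2, -1.27 to 0.025 for Egr3 and -0.11 to 0.15 for Ier2. Leaving out a library also turned Fos to 0.56 and Jun to 0.21. Without replicate 1 of both groups 5 changed sign (Fos 0.62, Fosb 0.10, Jun 0.22, Jund 0.075, Ier2 0.057), as did Hspa1a (0.11) and Hspa1b (0.39). The cause was not tested.

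Calls over all genes ran from 632 to 1634 higher and from 735 to 1963 lower with 1 library left out. Members called were 0 to 1 in each direction. Lists called lower ran from 1 to 6 (relatives, 6 without replicate 1 of both groups), 1 to 9 (other early genes, 10 without both), 0 to 1 (heat shock, 2 by DESeq2), 3 to 5 (upstream, 3 with library totals) and 0 to 3 (feedback, 2 by DESeq2 and 3 without both). Lists called higher ran from 0 to 1 for other early and upstream genes, with 2 upstream genes under library totals and without both, and 2 feedback genes under library totals.

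Same-numbered libraries correlated in their deviations at 0.29, 0.13 and -0.01, and differently numbered ones at -0.28 to 0.23. The highest value, 0.29, was that of replicate 1. The labels do not give the numbers as pairs, so the main fit did not pair them, and a batch shared by same-numbered libraries was not tested. With the replicate block 0 of the 10 genes were called, Nr4a1 had a limma adjusted p of 0.0843, the calls numbered 1656 higher and 2187 lower over all genes, and lower calls were 4 among relatives, 12 among other early genes and 3 among feedback genes.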
